A study of Mus musculus with 103 samples.

Results

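The genes followed here are 10 genes of the Notch pathway in mouse muscle stem cells: the receptors Notch1, Notch2 and Notch3, the ligands Dll1 and Jag1, the nuclear effector Rbpj, and the target genes Hes1, Hey1, Hey2 and Heyl. They were taken by gene symbol from the 43283 genes with an Ensembl identifier in the bulk table and from the 43282 in the table of single wells, and all 10 were found in both tables. Transcript levels had been measured in untreated cells of C57BL/6 mice to ask how muscle stem cells differ with age. Bulk libraries, each from 5000 to 10000 cells according to the labels, came from 3 young, 2 middle-aged (12 and 13 months) and 3 old (24 months) mice. Single wells came from 1 young mouse (64 wells) and 1 old mouse (31 wells, 24 months), and the labels repeat the bulk protocol for them. The labels give the young bulk mice as 3 months old in one field and as 2 months old in another, and the young mouse of the wells as 3 months old. No allele, transgene or treatment separates the groups. The labels call the source muscle stem cells and the design text calls it myoblasts, and a culture step in medium with fibroblast growth factor 2 is described, without its order relative to RNA isolation.

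Notch receptors are single-pass membrane proteins that are cut when a ligand of the Delta-like or Jagged family on a neighbouring cell pulls on them. ADAM and gamma-secretase proteases release the intracellular domain, which enters the nucleus and binds RBPJ, a DNA-binding protein that otherwise represses its target genes. The targets of the Hes and Hey families encode basic helix-loop-helix repressors. In muscle, Notch signalling keeps stem cells quiescent and holds back Myod1, the factor that drives them into the myogenic program, and loss of Rbpj depletes the stem cell pool.

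RBPJ binds the core letters TGGGAA, so the windows of 250 bases before the start sites of the genes were searched for them. RefSeq promoters on GRCm38.p6 were given for 7 of the 10 genes, in 9 windows, and entries for Hes1, Hey1 and Heyl were not matched. The motif TGGGAA was searched on both strands (TTCCCA on the other strand) and was present in 21.6% of the 32851 windows given. Those windows did not cover every gene, and a gene could have more than 1 of them. The longer form GTGGGAA, which contains TGGGAA, was present in 5.42% of them. Of the 9 windows, 3 held TGGGAA: 1 of Hey2 and both of Rbpj. The Hey2 window held the longer form, on the strand opposite to the gene, with its first base 207 bases before the start. The first Rbpj window held TGGGAA on the gene's strand at 149 bases and on the opposite strand at 65 bases before the start, and the second window held the latter site at 205 bases before its own start. The windows of Notch1, Notch2, Notch3, Dll1 and Jag1 held neither form, which says only that these letters are not in these bases. Those of Hey2 and Rbpj are shown because they hold the motif, and that of Notch3 because it had none and because this receptor varied most closely with a target gene. Capitals mark TGGGAA or TTCCCA, and the coordinates are chr10:30842784-30843033 (minus strand), chr5:53590096-53590345 (plus strand) and chr17:32166891-32167140 (minus strand).
Hey2: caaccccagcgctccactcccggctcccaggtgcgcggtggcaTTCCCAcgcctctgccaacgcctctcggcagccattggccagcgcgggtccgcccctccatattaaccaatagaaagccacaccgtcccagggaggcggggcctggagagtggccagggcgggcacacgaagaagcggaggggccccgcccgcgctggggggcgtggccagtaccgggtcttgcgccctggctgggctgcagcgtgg
Rbpj: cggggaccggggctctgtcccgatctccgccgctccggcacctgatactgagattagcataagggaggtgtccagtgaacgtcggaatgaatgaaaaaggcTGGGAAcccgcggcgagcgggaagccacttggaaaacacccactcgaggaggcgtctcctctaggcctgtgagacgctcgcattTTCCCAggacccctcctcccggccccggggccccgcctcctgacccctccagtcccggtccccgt
Notch3: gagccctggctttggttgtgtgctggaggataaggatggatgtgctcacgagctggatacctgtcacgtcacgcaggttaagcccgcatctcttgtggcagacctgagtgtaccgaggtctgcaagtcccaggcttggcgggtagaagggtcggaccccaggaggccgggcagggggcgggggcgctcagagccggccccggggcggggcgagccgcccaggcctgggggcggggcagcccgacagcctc

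The libraries as a whole set limits on single genes. Between 12849 and 17114 genes were listed at 1 TPM or more (a gene's share of the library's transcripts, scaled for gene length) in each bulk library, and mitochondrially encoded RNA took 32.7 to 46.5% of TPM. A listing at 0 is no proof of absence, since 39.1% of all genes averaging 5 TPM or more had a 0 in some library. All 12 muscle stem cell markers were detected, with summed levels of 2326 to 2640 TPM in young, 1780 to 2369 in middle-aged and 1496 to 2236 in old libraries. Markers of other cell types were also present. Endothelial markers summed to 38 to 48, 70 to 119.5 and 49 to 76 TPM, with Tie1, Egfl7 and Cldn5 of 12 at 0 in all 8 libraries. Smooth muscle and pericyte markers (0 of 12 at 0 throughout) summed to 483 to 690, 700.6 to 798 and 514.5 to 1041 TPM, fibroblast markers (0 of 10) to 1136 to 1409, 1176 to 1353 and 1463 to 2107, and Schwann cell markers (0 of 10) to 85 to 163, 175 to 338 and 428 to 1342. Macrophage markers (C1qa of 8 at 0 throughout) summed to 27 to 47, 78 to 108 and 28 to 60 TPM, and muscle fibre markers (Pvalb of 8) to 0 to 30.5, 0 to 11 and 14 to 62. The part of these marker levels in the results below was not tested. In bulk RNA, fewer cells of a type and less RNA per cell cannot be told apart.

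Among the receptors, Notch2 and Notch3 stood at like mean levels and Notch1 lower. Notch2 (chromosome 3, 98013527 to 98150361, plus strand, GENCODE vM21 on GRCm38) had 43.9, 48.2 and 45.3 TPM in young libraries 1 to 3, 51.3 and 42.4 TPM in the 2 middle-aged and 46.2, 39.7 and 63.6 TPM in the old ones. The 3 ages overlapped fully, and Notch2 was the steadiest of the 10 genes. Its coefficient of variation over the 8 libraries was 15.5%, and 1.46% of the 4393 genes averaging 20 TPM or more had a lower one (median 43.7%).

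Notch3 (chromosome 17, 32120820 to 32166852, minus strand) had 70.8, 60.8 and 41.2 TPM in the young libraries, 40.9 and 24.99 in the middle-aged ones and 21.2, 46.1 and 84.9 in the old ones. The old libraries held both the lowest and the highest of the 8 values, while both middle-aged values lay below all young ones. Notch1 (chromosome 2, 26457903 to 26516663, minus strand), a receptor that muscle stem cells need to stay quiescent together with Notch2, had 24.8, 13.3 and 22.1 TPM in the young libraries, 6.38 and 6.81 in the middle-aged ones and 34.7, 8.26 and 38.9 in the old ones. Both middle-aged values of Notch1 lay below all other libraries, and old library 2 lay far below the other 2 old ones. As a share of the 3 receptors' summed TPM, Notch1 made up 16.3 ± 4.9% in young (SD, n = 3), 7.83 ± 1.91% in middle-aged (n = 2) and 21.2 ± 12.6% in old libraries (n = 3). Notch2 made up 37.5 ± 5.4%, 54.6 ± 3.6% and 40.5 ± 5.8%, and Notch3 46.1 ± 7.1%, 37.6 ± 5.5% and 38.4 ± 15.3%. The middle-aged libraries therefore had the highest Notch2 shares, 52.02 and 57.1% against 31.5 to 45.2% elsewhere, while the level of Notch2 itself was like that of the other ages. Exons of Notch1, Notch2, Notch3 and Dll1 overlap other annotated transcripts, among them the antisense gene Gm17276 at Notch3. The strandedness of the counting is not given in the sources used here, so such reads cannot be told apart.

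The ligand Dll1, a Delta-like protein that muscle stem cells and their progeny present to neighbours, had the lowest ratio of old to young among the 10. Dll1 (chromosome 17, 15367354 to 15376872, minus strand) had 24.6, 16.7 and 18.5 TPM in the young libraries, 12.7 and 1.86 in the middle-aged ones and 19.9, 4.43 and 5.97 in the old ones. Both middle-aged values and old libraries 2 and 3 lay below every young value, and old library 1 lay inside the young range. Jag1 (chromosome 2, 137081456 to 137116644, minus strand), a Jagged ligand, had 13.7, 32.3 and 24.3 TPM in the young libraries, 18.4 and 19.6 in the middle-aged ones and 9.15, 26.4 and 25.99 in the old ones, so the ages overlapped. In young library 1 and old library 1, where Jag1 was lowest for its age, Dll1 was highest for its age. Over all 8 libraries Pearson's r of their log2(TPM + 1) was -0.35 (exact permutation p = 0.399, 0.783 adjusted over 45 pairs). The summed TPM of both ligands was 38.3 to 49.03 in young, 21.4 and 31.2 in middle-aged and 29.01 to 31.96 in old libraries. Each old and each middle-aged sum lay below each young sum. This sum was formed with the values known and is given without a test. Alone, Jag1 overlapped with young at both ages and Dll1 in old. Of all single genes, 4.16% lay below young without overlap in old and 5.37% in middle-aged.

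Rbpj (chromosome 5, 53466152 to 53657362, plus strand), through which all 3 receptors act, had 51.2, 19.7 and 34.1 TPM in the young libraries, 62.9 and 51.4 in the middle-aged ones and 47.8, 26.1 and 63.9 in the old ones. Both middle-aged values lay above the highest young value, the nearer by little (51.37 against 51.22 TPM), and old and young overlapped. The annotation lists the processed copies Rbpj-ps1 and Rbpj-ps3, so its level is uncertain by the reads they may share.

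The target genes Heyl and Hes1 had the highest levels of the 10. Heyl (chromosome 4, 123233556 to 123249875, plus strand), a Hey family repressor found in quiescent muscle stem cells, had 229, 278 and 189 TPM in the young libraries, 155 and 124 in the middle-aged ones and 137, 172 and 281 in the old ones. Both middle-aged values lay below the young range, and the old values lay on both sides of it. Hes1 (chromosome 16, 30064384 to 30067796, plus strand), a repressor whose level oscillates in many progenitor cells, had 83.1, 143 and 185 TPM in the young libraries, 249 and 68.8 in the middle-aged ones and 168, 232 and 68.2 in the old ones. Hes1 thus spread widely within each age, and the ages overlapped.

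Hey1 (chromosome 3, 8663359 to 8667256, minus strand), which together with Heyl is needed to keep muscle stem cells undifferentiated, had 39.4, 113 and 44.9 TPM in the young libraries, 60.5 and 11.3 in the middle-aged ones and 45.3, 66.7 and 39.1 in the old ones. Hey2 (chromosome 10, 30832359 to 30842801, minus strand), better known from the heart and arteries, had 3.92, 4.10 and 20.1 TPM in the young libraries, 15.1 and 0 in the middle-aged ones and 13.1, 7.69 and 3.58 in the old ones. Hey1 and Hey2 were both lowest in middle-aged library 2, where Hey2 was listed at 0, and their ages overlapped. The 4 targets summed to 444 ± 91 TPM in young (SD, n = 3), 342 ± 195 TPM in middle-aged (n = 2) and 411 ± 60 TPM in old libraries (n = 3), and Heyl alone made up 53.1 ± 10.7%, 46.6 ± 20.1% and 48.4 ± 20.2% of that sum.

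**Figure D1:**
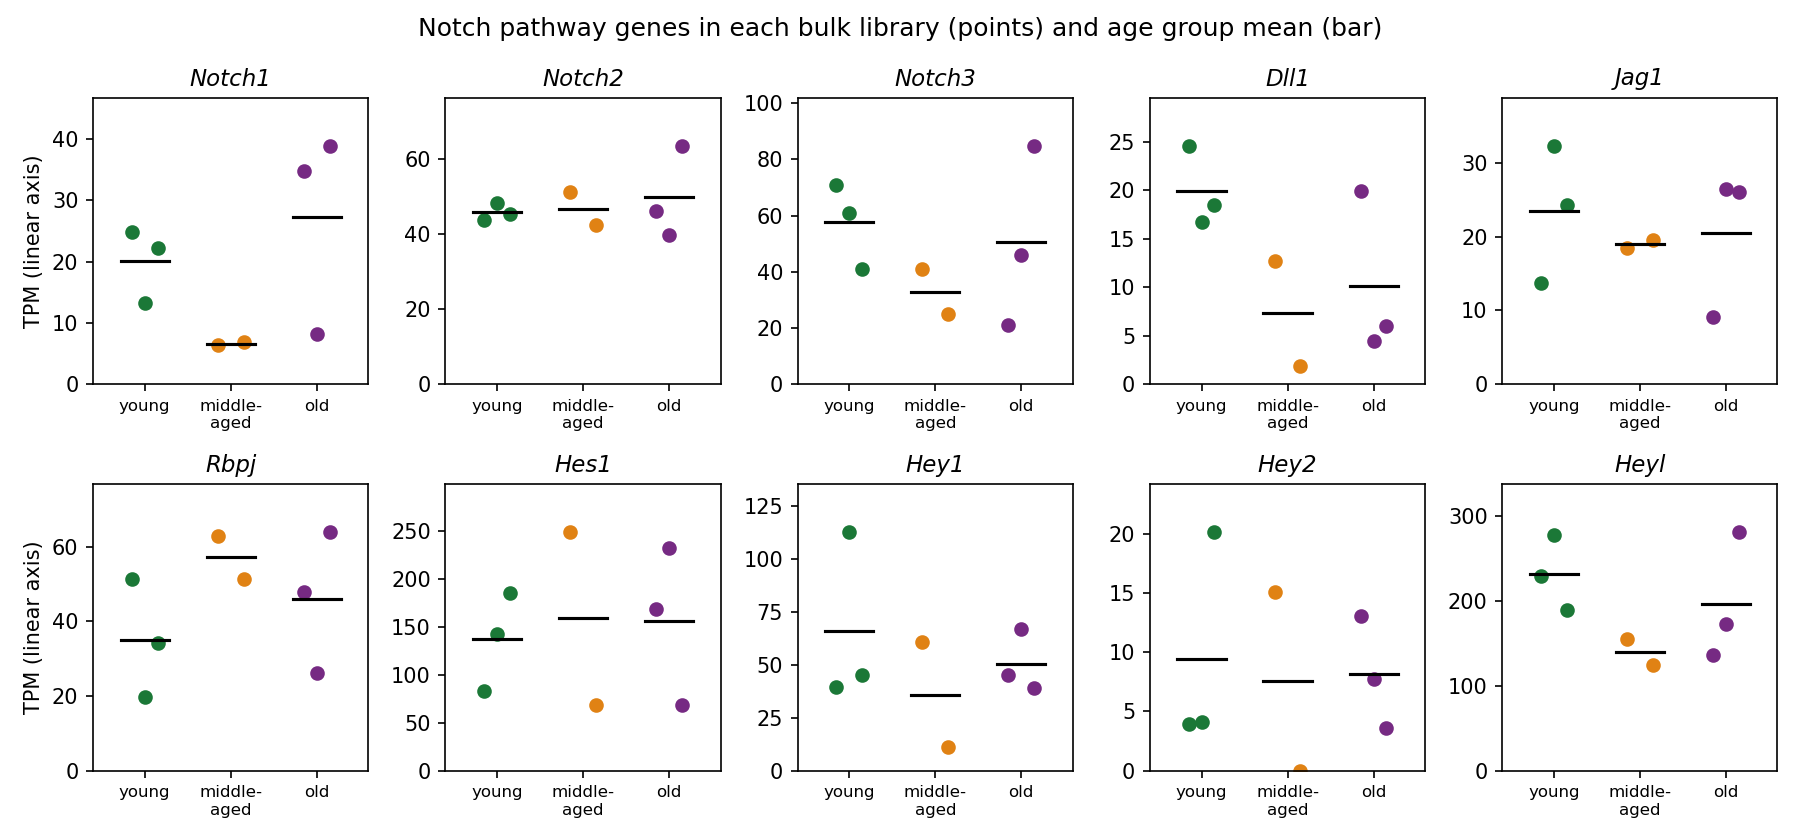
TPM (linear axis, separate scale per gene) of the 10 Notch genes in each of the 8 bulk libraries, with points for libraries 1, 2 and 3 from left to right within an age and a bar for the group mean. Notch2 is level across all libraries at 39.7 to 63.6 TPM, both middle-aged points of Notch1, Notch3, Dll1 and Heyl lie below the young points, and the old points of Notch1, Notch3 and Heyl are spread widely.

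Over all 8 libraries the mean levels ran from Heyl (196 TPM) through Hes1 (150), Hey1 (52.5), Notch3 (48.9), Notch2 (47.6), Rbpj (44.6), Jag1 (21.2), Notch1 (19.4) and Dll1 (13.1) to Hey2 (8.45 TPM). Neighbours in this order were compared within libraries by an exact two-sided paired permutation test on log2(TPM + 1). Hes1 lay above Hey1 in 8 of 8 libraries (p = 0.0078125, 0.0703 adjusted over the 9 neighbouring pairs, the exact permutation test), by 1.55 ± 0.74 log2 units. Rbpj lay above Jag1 in 6 of 8 (exact permutation p = 0.0469, 0.211 adjusted). The first p is the smallest that 8 libraries can give, so a single pair could not pass after adjustment over 9. The other 7 pairs gave an adjusted p of 0.366 or more. No neighbouring pair passed after adjustment, so the order of the means was not settled by this test for any of these genes. The pairs were also chosen by sorting the means of the same libraries.

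Between old and young muscle stem cells none of the 10 genes passed the test, which was limma on log2(TPM + 1) over the 22492 genes averaging 1 TPM or more, with Benjamini-Hochberg adjustment and a threshold of 0.05. Over all genes 0 were called, 0% (5.89% had an unadjusted p under 0.05), so the members stood at the background. Of the 10 genes, 5 were higher and 5 lower in old, with a median difference of -0.11 log2 units against 0 for all genes, and 45.8% of all genes were lower. For each of the 10, old and young libraries overlapped, whereas 10% of all genes did not overlap (5.85% higher and 4.16% lower in old). Dll1 had the largest difference, -1.16 log2 units (SE 0.75, 95% interval -2.83 to 0.51, 0.447-fold, limma adjusted p = 0.839), and it ranged from -1.75 without old library 1 to -0.78 without old library 2. Notch2 had the narrowest interval among the receptors, 0.09 (SE 0.36, -0.70 to 0.89). Heyl differed by -0.29 (SE 0.34, -1.03 to 0.46), Notch3 by -0.35 (SE 0.52, -1.51 to 0.80), Rbpj by 0.39 (SE 0.48, -0.67 to 1.46) and Notch1 by 0.21 (SE 0.63, -1.19 to 1.61). Jag1, Hes1, Hey1 and Hey2 lay between -0.25 and 0.09, and each of their intervals reached past 1 log2 unit in at least 1 direction. The exact two-sided permutation test of single genes gave p = 0.3 for Dll1 and 0.5 to 1.0 for the others, where 0.1 is the smallest that 3 against 3 libraries can give. The sign of 7 of the 10 differences turned without some single library, and that of Dll1, Rbpj and Heyl did not, although Rbpj stood at 0.043 without young library 2 and Heyl stood at -0.058 without old library 1. A missed threshold does not show equal levels.

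Between middle-aged and young cells more of the Notch genes lay lower than higher, and none passed the test. Of the 10, 7 were lower and 3 higher in middle-aged libraries, and their median difference was -0.76 log2 units. The median of all 22492 genes was 0.18, and 44.8% of them were lower. Over all genes 1 was called, 0.00445%, and 0 of the 10, and at an unadjusted p under 0.05 the calls were 7.78% of all genes (2.28% lower) and 0 of the 10. Notch1 (-1.43 log2 units, SE 0.71), Notch3 (-0.79, SE 0.58), Dll1 (-1.72, SE 0.84) and Heyl (-0.72, SE 0.38) lay lower in both middle-aged libraries than in all young ones. That is 4 of 10 against 5.37% of all genes. Their limma p adjusted over all genes was 0.626 for Notch1, Dll1 and Heyl and 0.673 for Notch3 (unadjusted 0.0701, 0.0671, 0.0854 and 0.202). Rbpj lay higher in both (0.78, SE 0.54, adjusted p = 0.642), 1 of 10 against 12.6% of all genes.

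Hey1 and Hey2 differed by -1.11 (SE 0.70) and -1.01 (SE 1.202) between middle-aged and young, resting mainly on middle-aged library 2, since middle-aged library 1 lay inside the young range for both. Notch2, Jag1 and Hes1 differed by 0.03, -0.21 and 0.01 log2 units. With values quantile-normalized, the median of all genes moved from 0.18 to 0, and 9 of the 10 genes then lay lower. Of the values that set this comparison apart, the difference of Dll1 moved most without a single library, from -2.85 without middle-aged library 1 to -0.59 without middle-aged library 2. Those of Notch1, Notch3 and Heyl lay between -1.69 and -1.26, -1.14 and -0.45, and -0.88 and -0.56. In the same libraries the summed muscle stem cell markers were 1780 and 2369 TPM against 2326 to 2640 TPM in young. The sums of endothelial, macrophage, Schwann cell and smooth muscle and pericyte markers were higher without overlap. Single markers of each of these lists went both ways. Among macrophage markers, Lyz2 had 78.7 and 58.2 TPM against 4.88 to 21.5 TPM in young, and Ptprc had 4.79 and 4.25 TPM against 5.38 to 25.6 TPM. The endothelial Tek had 10.7 and 7.61 TPM against 7.2 to 24.4 TPM, and the Schwann cell Mal had 5.5 and 21.9 TPM against 14.97 to 26.5 TPM. Of the smooth muscle and pericyte list, Acta2 had 214 and 265 TPM against 90.8 to 116 TPM in young, and Rgs5 had 157 and 270 TPM against 228 to 400 TPM. The part of all these markers was not tested.

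Between old and middle-aged cells Notch1 had the largest difference of the 10. It differed by 1.64 log2 units (SE 0.71, 95% interval 0.07 to 3.21, 3.11-fold higher in old, unadjusted limma p = 0.0422, adjusted p = 0.724), with both middle-aged libraries below all 3 old ones. It was 2.31 without old library 2 and 1.26 without old library 3. This was 1 of 10 genes against 7.15% of all genes with such a separation upwards, and 0 of 10 passed the adjusted threshold, as 0 (0%) of all genes did. At an unadjusted p under 0.05, 1 of 10 passed against 6.19% of all genes (2.34% higher and 3.85% lower). Of the 10, 8 were higher and 2 lower in old, with a median of 0.44 against -0.09 for all genes. Heyl differed by 0.43 (SE 0.38), Notch3 by 0.44 (SE 0.58), Dll1 by 0.56 (SE 0.84), Rbpj by -0.39 (SE 0.54) and Notch2 by 0.07 (SE 0.40), all with overlapping libraries. The 3 comparisons share libraries, so they are not independent of each other.

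**Figure D2:**
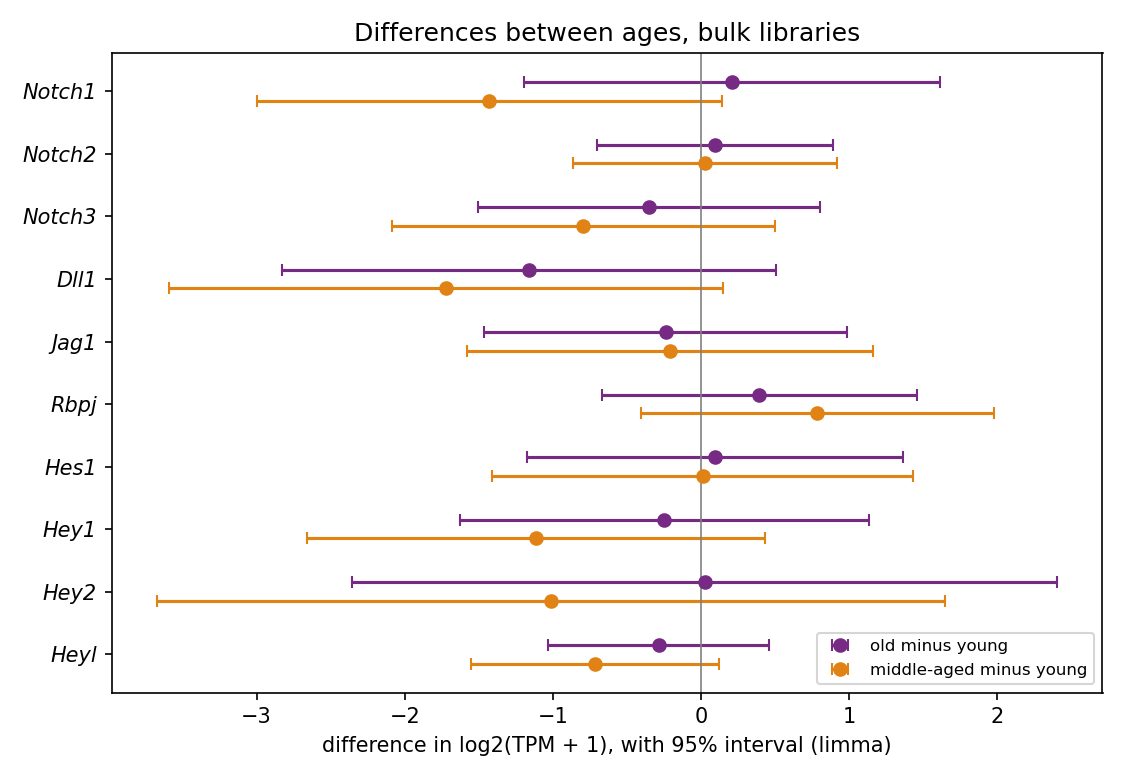
Differences in log2(TPM + 1) of the 10 Notch genes (x axis, 0 marked), old minus young and middle-aged minus young, with the limma estimate as a point and its 95% interval as a bar. Every interval holds 0, and the lowest estimates are those of Dll1 at -1.72 and Notch1 at -1.43 in middle-aged against young.

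Of all pairs among the 10 genes, Notch3 and Heyl had the highest correlation across the bulk libraries. Heyl was lowest where Notch3 was lowest (middle-aged 2 and old 1) and highest where Notch3 was highest (old 3), and Pearson's r of their log2(TPM + 1) was 0.92 (Spearman's rho 0.93, 8 libraries). Exact permutation gave p = 0.00231 for r and 0.00223 for rho, and 0.104 and 0.1004 after adjustment over all 45 pairs of the 10 genes. Without old libraries 1 and 3, the farthest from the median of Notch3, r was 0.90, and after removal of the age means it was 0.92. The next pair was Hes1 with Hey2, at r = 0.80 and rho = 0.86 (exact permutation p = 0.0131 and 0.0107, adjusted 0.296 and 0.241). That r was 0.68 without middle-aged library 2 and old library 3. No pair passed after adjustment. Both genes of the first pair are also expressed in smooth muscle cells and pericytes. The markers of those cells summed to 483 to 690 TPM in young and to 700.6 to 798 TPM in middle-aged libraries. In the old libraries they summed to 514.5 to 1041 TPM. Single markers of this list went both ways between middle-aged and young, and the part of these cells in this correlation was not tested.

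**Figure D3:**
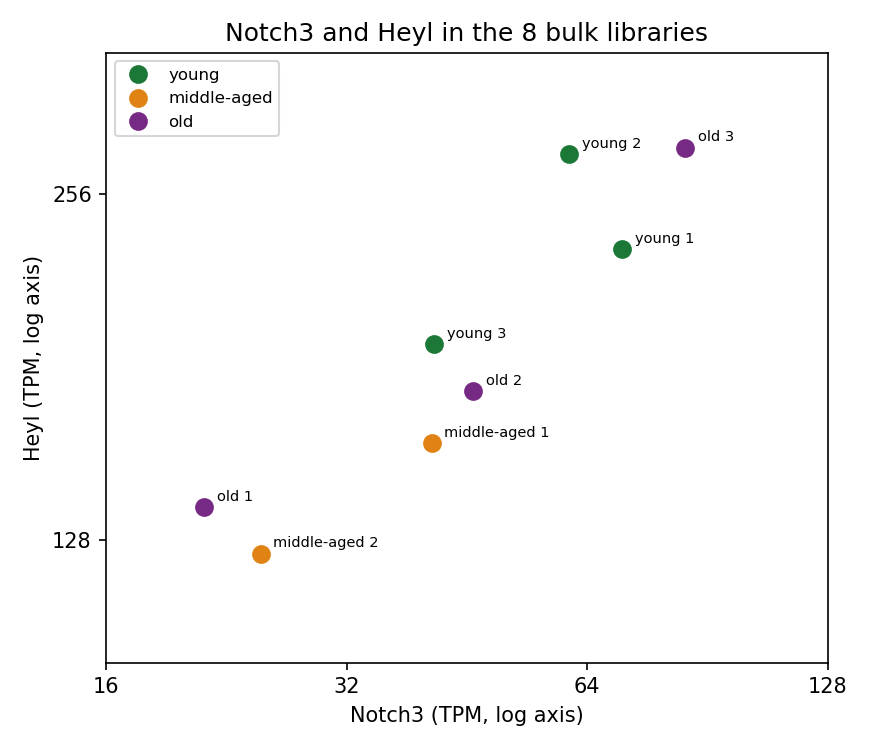
Heyl against Notch3 in the 8 bulk libraries, both in TPM on log axes, with points coloured by age and labelled by library. Both genes are lowest in middle-aged 2 and old 1 at the lower left and highest toward old 3 at the upper right, with r = 0.92 on log2(TPM + 1).

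Among the 3884 genes averaging 20 TPM or more with no library at 0, those most like each Notch gene over the 8 libraries were named by Pearson's r of log2(TPM + 1), as a description without a test. The best match among so many genes is high by construction. For Notch3 these were Ehd2 (0.97), Neo1 (0.94) and Capg (0.94), and for Heyl Fam168b (0.96), Capg (0.95) and Gsap (0.94), so that Capg, an actin-capping protein, was in both lists. For Notch1 they were Lamc1 (0.94), a laminin chain of the basement membrane, Agrn (0.94), the heparan sulphate proteoglycan agrin, and Prex2 (0.91). Notch2 went with Ash1l (0.89), Wasf2 (0.87) and Nedd4 (0.87), a ubiquitin ligase that acts on Notch. Dll1 went with Rpl26 (0.97), Ibtk (0.92) and Deptor (0.91), and Jag1 with Aqr (0.97), Zfp871 (0.96) and C78339 (0.94). Rbpj went with Rnf141 (0.97), Gm9845 (0.95) and 2610507B11Rik (0.91). Hes1 went with Trim23 (0.97), Rab18 (0.95) and Ptbp2 (0.94), Hey1 with Ints8 (0.97), Hdgfrp3 (0.97) and Rhot1 (0.94), and Hey2 with Fbxl5 (0.95), Dhx30 (0.94) and Mta1 (0.93).

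Other genes of the pathway, 80 in 7 groups, were read alongside. Of these 79 had a row and 71 were tested, and 0 passed the adjusted threshold in any of the 3 comparisons. Old against young, 42 were higher and 29 lower (4 higher and 0 lower at an unadjusted limma p under 0.05, against 3.72% and 2.17% of all genes), with a median of 0.14 log2 units. Without overlap, 9 of the 71 lay higher and 2 lower in old, against 5.85% and 4.16% of all genes. Bhlhe40, Dtx2 and Psenen are named below because they had the smallest p of those higher in old. Middle-aged against young, 32 were higher and 39 lower (2 and 1, against 5.5% and 2.28% of all genes), with a median of -0.13. Old against middle-aged, 39 were higher and 32 lower (4 and 1, against 2.34% and 3.85% of all genes), with a median of 0.11.

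The other receptors and ligands were low or at 0. Dll3, Dll4 and Dlk2 were listed at 0 in all 8 bulk libraries. Notch4, a receptor of endothelial cells, had 27.5, 1.52 and 0 TPM in the young libraries, 1.15 and 0 in the middle-aged ones and 0.61, 4.6 and 0 in the old ones, so that its young mean rests on library 1. Dlk1, a ligand-like inhibitor, had 0 to 5.58 TPM in young, 3.83 and 3.39 TPM in middle-aged and 2.08 to 16.7 TPM in old libraries.

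Enzymes that fit the receptors for ligand and cut them gave 0 calls. Of 5 glycosylation genes, 2 were higher and 3 lower in old than in young. Poglut1 and Pofut1, which add the sugars that receptors need, averaged 40.1 ± 9.4 and 16.7 ± 3.7 TPM in young (SD, n = 3), against 28.9 ± 16.3 and 18.6 ± 4.5 TPM in old libraries (n = 3). Rfng, a fringe enzyme that tunes the response to ligands, had 4.80, 5.01 and 8.21 TPM in the young libraries, 0 and 3.27 in the middle-aged ones and 0, 0 and 5.85 in the old ones (limma adjusted p = 0.839, old against young). Of 10 proteases and their subunits, 8 were higher and 2 lower in old. Adam10, which makes the first cut, had a young mean of 45.7 ± 22.9 TPM and an old mean of 48.7 ± 18.4 TPM, and the gamma-secretase subunit Ncstn 43.7 ± 7.5 and 35.9 ± 13.3 TPM. Psenen, another subunit of gamma-secretase, had 10.01, 0 and 11.3 TPM in the young libraries, 0 in the middle-aged ones and 16.4, 32.95 and 38.3 in the old ones. All old values of Psenen lay above all others (old against young 2.47 log2 units, SE 0.99, limma adjusted p = 0.808), and its values at 0 make that size uncertain.

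Among 14 tested genes that ubiquitinate or traffic ligands and receptors, 8 were higher and 6 lower in old than in young. Nedd4 had a young mean of 263 ± 10 TPM and an old mean of 293 ± 89 TPM, and Dtx4, a Deltex ligase that binds Notch, 109 ± 25 and 93.2 ± 28.98 TPM. Dtx2, another Deltex gene, had 0.89, 0 and 2.29 TPM in the young libraries, 3.09 and 2.42 in the middle-aged ones and 24.5, 8.47 and 6.94 in the old ones. The old and young values of Dtx2 did not overlap (2.76 log2 units, SE 0.85, unadjusted p = 0.00814, limma adjusted p = 0.694). Of 23 nuclear cofactors, 15 were higher and 8 lower in old, and the abundant corepressor genes Ncor1 and Hdac2 had young means of 270 ± 122 and 161 ± 110 TPM and old means of 214 ± 19 and 102.7 ± 45.7 TPM. Cir1, which links RBPJ to corepressors, averaged 56.2 ± 22.9 and 34.5 ± 8.1 TPM.

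Of the other Hes and target genes, 5 of 8 tested were higher and 3 lower in old than in young, and Hes3 was listed at 0 in all libraries. Bhlhe40, a basic helix-loop-helix repressor that also answers to hypoxia and the circadian clock, had 138, 82.9 and 101 TPM in the young libraries, 331 and 348 in the middle-aged ones and 310, 208 and 232 in the old ones. Every middle-aged and old library lay above every young one, by 1.68 log2 units (SE 0.34, unadjusted p = 0.000523, limma adjusted p = 0.275) and 1.22 (SE 0.31, unadjusted p = 0.00231, adjusted p = 0.544). Of all genes, 12.6% lay higher without overlap in middle-aged and 5.85% in old libraries. Id3, a target of BMP signals that blocks myogenic factors, averaged 86.9 ± 21.1 TPM in young (n = 3), 163 ± 35 TPM in middle-aged (n = 2) and 102 ± 12 TPM in old (n = 3).

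Genes reported to depend on Notch in muscle stem cells were lower in middle-aged than in young libraries in 9 of 9 cases on the scale of log2(TPM + 1), 3 of them without overlap (5.37% of all genes were lower without overlap, and 44.8% lower at all), with a median of -0.42 log2 units and 0 past the threshold. Col5a2, a collagen chain chosen after its values were seen, had a higher mean TPM in middle-aged libraries (32.3, from 61.6 and 2.95) than in young ones (17.1), so that its log2 difference of -0.20 rests on middle-aged library 2. Col6a1 had 32.8 TPM in middle-aged library 1, above every young value (25.7 to 29.8), and 16.2 TPM in library 2. Calcr had 294 and 96.2 TPM in them, against 144, 273 and 315 TPM in young. The 9 of 9 therefore rests in part on middle-aged library 2. Old against young, 3 were higher and 6 lower, with a median of -0.36. Pax7, the transcription factor that defines these cells, had 308, 316 and 248 TPM in the young libraries, 231 and 127 in the middle-aged ones and 219, 246 and 185 in the old ones. All middle-aged and old values of Pax7 lay below the young ones (-0.75 log2 units, SE 0.35, limma adjusted p = 0.626, and -0.42, SE 0.31, adjusted p = 0.839). The nearest old value was lower by little (246.47 against 247.89 TPM), and 4.16% of all genes lay lower in old without overlap. Calcr, a calcitonin receptor of quiescent muscle stem cells, averaged 244 ± 89 TPM in young, 195 ± 140 TPM in middle-aged and 166 ± 55 TPM in old libraries, with overlap.

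Single wells show which of these genes were found in the same cell. A gene was counted as found at 1 TPM or more, and intervals are exact Clopper-Pearson 95% intervals that cover counting error between wells only. The wells differed in what they held: 54 of 64 young wells but 7 of 31 old wells had at least 1000 genes, with medians of 1934 and 1820 genes in those and of 1854 and 64 genes over all wells. With 1 mouse per age, the age, the mouse and the quality of the wells cannot be told apart, so the ages were not tested against each other and the young wells with at least 1000 genes carry the description. In 53 of these 54 wells at least 3 muscle stem cell markers were found. The endothelial genes Cdh5, Kdr, Flt1 and Emcn were found in 0 of the 54, and any of the pericyte genes Rgs5, Pdgfrb, Cspg4 and Kcnj8 in 3. Over the whole lists of 12 and all 64 young wells, any endothelial marker was found in 14 wells (3 or more in 0) and any smooth muscle or pericyte marker in 32 (3 or more in 5). At least 3 of 10 fibroblast markers were found in 40 of all 64 young wells, with Pdgfra, Mfap5 and Clec3b in 0 of them, and their part in the values below was not tested.

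Notch2 was the receptor found in most young wells, 47 of 54 (87.0%, 75.1 to 94.6%), followed by Notch3 in 27 (50.0%, 36.1 to 63.9%) and Notch1 in 14 (25.9%, 14.96 to 39.7%). Where found, Notch2 ranged from 1.12 to 143 TPM with a median of 10.2, Notch3 from 1.04 to 45.2 TPM with a median of 10.3 and Notch1 from 1.19 to 68.2 TPM with a median of 7.21. The intervals of the shares of Notch2 and Notch3 did not overlap, while their median levels where found were alike. In 10 wells all 3 receptors were found, in 19 wells 2, in 20 wells 1 and in 5 wells 0.

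Jag1 was found in 31 of 54 young wells (57.4%, 43.2 to 70.8%) and reached 410 TPM in a single well, with a median of 29.4 TPM where found. Dll1 was found in 2 (3.70%, 0.452 to 12.7%), at 3.26 and 13.9 TPM. The 2 ligands were found together in 1 well. In bulk their young means were 23.4 ± 9.3 TPM for Jag1 and 19.9 ± 4.1 TPM for Dll1 (SD, n = 3), while over all 64 young wells they averaged 31.04 and 0.275 TPM. The 2 tables were normalized separately, so these are set side by side only.

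Rbpj was found in 18 young wells (33.3%, 21.1 to 47.5%). Of the targets, Hes1 was found in 26 (48.1%, 34.3 to 62.2%), Heyl in 24 (44.4%, 30.9 to 58.6%), Hey1 in 10 (18.5%, 9.25 to 31.4%) and Hey2 in 2 (3.70%). Where found, the median was 35.9 TPM for Heyl (1.22 to 423), 55.9 TPM for Hey1 (13.9 to 511) and 9.55 TPM for Hes1 (1.57 to 81.2), and Hey2 had 1.58 and 20.07 TPM. Hey1 thus had the highest median of the 4 where found, in 10 wells. At least 1 target and 1 receptor were found together in 36 wells, and a target without a receptor in 3. A receptor and a ligand were found together in 29 wells (53.7%, 39.6 to 67.4%), a receptor, a ligand and a target in 24, and Rbpj with all of these in 5. In 1 well none of the 10 genes was found.

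Notch3 and Heyl were found together in 16 young wells, where the product of their shares gives 12.0. This was not particular to Heyl. Notch3 was found with Jag1 in 19 wells (product 15.5), with Hes1 in 15 (product 13.0) and with Hey1 in 7 (product 5.0). With Rbpj it was found in 7 (product 9.0). Notch1 and Notch3 were found together in 11 wells (product 7.0), and Notch1 and Rbpj in 1 (product 4.67). These counts share the wells' depth and are given as a description. All 24 wells with Heyl and 26 of the 27 with Notch3 also held Pax7 or Myf5, as did 51 of all 54 wells.

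The young wells were also divided by Myod1, which Notch signalling holds back. Myod1 was found in 16 wells (median 1776 genes found) and not in 38 (median 1981). Notch3 was found in 3 of the 16 wells with Myod1 (18.8%, 4.05 to 45.6%) and in 24 of the 38 without it (63.2%, 45.99 to 78.2%). These 2 intervals did not overlap, but they cover counting error between wells of 1 mouse only. Notch3 by Myod1 was the only such case among the 10 genes divided by Myod1, Pax7 or Calcr, so it is the extreme of many comparisons. How many of all genes would part as far under this division was not counted. Notch2 was found in 11 of 16 (68.8%, 41.3 to 89.0%) and 36 of 38 (94.7%, 82.3 to 99.4%), Jag1 in 6 of 16 (37.5%) and 25 of 38 (65.8%), Hes1 in 5 of 16 (31.3%) and 21 of 38 (55.3%), and Hey1 in 1 of 16 and 9 of 38. Heyl was found in like shares, 7 of 16 (43.8%) and 17 of 38 (44.7%), as were Notch1 (4 of 16 and 10 of 38) and Rbpj (5 of 16 and 13 of 38). Divided by Pax7, found in 38 wells (median 1999 genes) and not in 16 (median 1575), Heyl was found in 20 of 38 and 4 of 16, Jag1 in 25 of 38 and 6 of 16, and Notch3 in 20 of 38 and 7 of 16. Hes1 went the other way, in 17 of 38 and 9 of 16, as did Hey2, in 1 of 38 and 1 of 16. Notch1 was found in like shares, 10 of 38 and 4 of 16. Divided by Calcr, found in 24 wells and not in 30, Notch3 was found in 15 of 24 (62.5%) and 12 of 30 (40.0%), and the 2 intervals overlapped. The wells are cells of 1 mouse and were divided by a gene measured in the same wells, so no test was made, and wells with more genes found also had more chance to hold any gene.

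**Figure D4:**
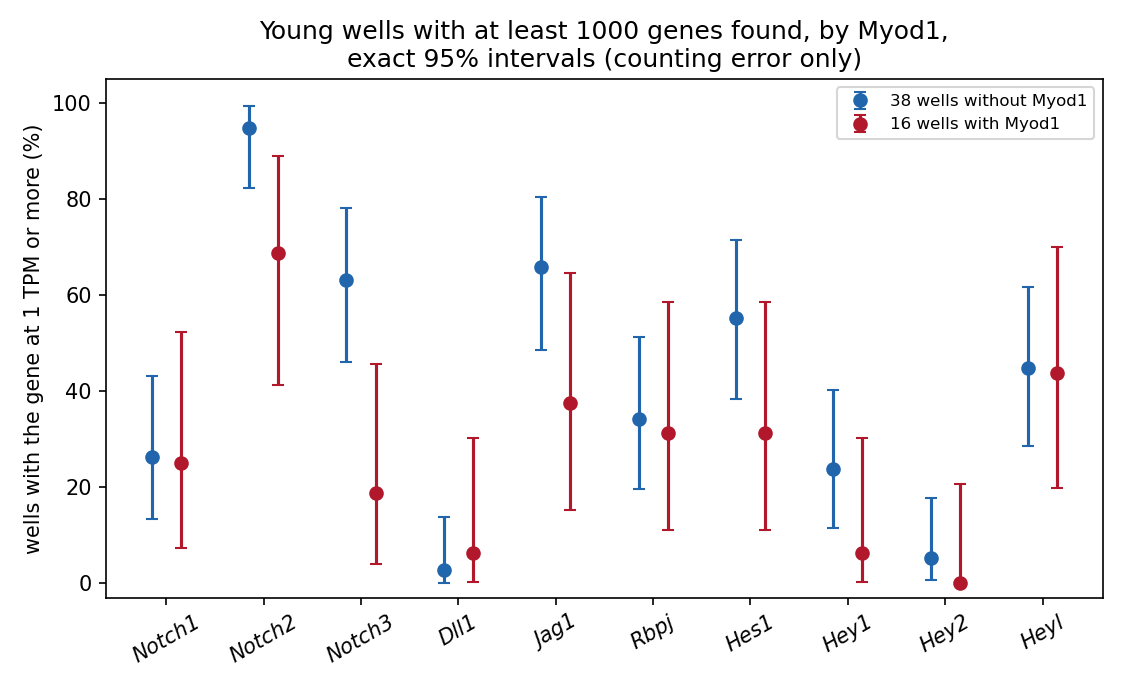
Share of young wells (percent) with each Notch gene at 1 TPM or more, for the 38 wells without and the 16 wells with Myod1, among wells with at least 1000 genes, with exact 95% intervals as bars. Notch3 stands at 63.2% without and 18.8% with Myod1, while Heyl stands at 44.7% and 43.8%. The division was chosen after the values were seen, and no test was made.

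In the old mouse 7 wells had at least 1000 genes. Notch2 was found in 6 of them (85.7%, 42.1 to 99.6%), Notch3 and Jag1 in 5 each, Hes1 and Heyl in 4 each, Rbpj in 3, Dll1 in 2, Notch1 and Hey1 in 1 each and Hey2 in 0, which in 7 wells allows a share of up to 42.9% (3 of 7). The 2 wells with Dll1 had 340 and 6.98 TPM. The first of them also had the highest Notch3 of the old wells, 99.9 TPM, and 68.7 TPM of Jag1. That well also had the most genes found of the 7, 2950 against 1041 to 2587 in the others.

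**Figure D5:**
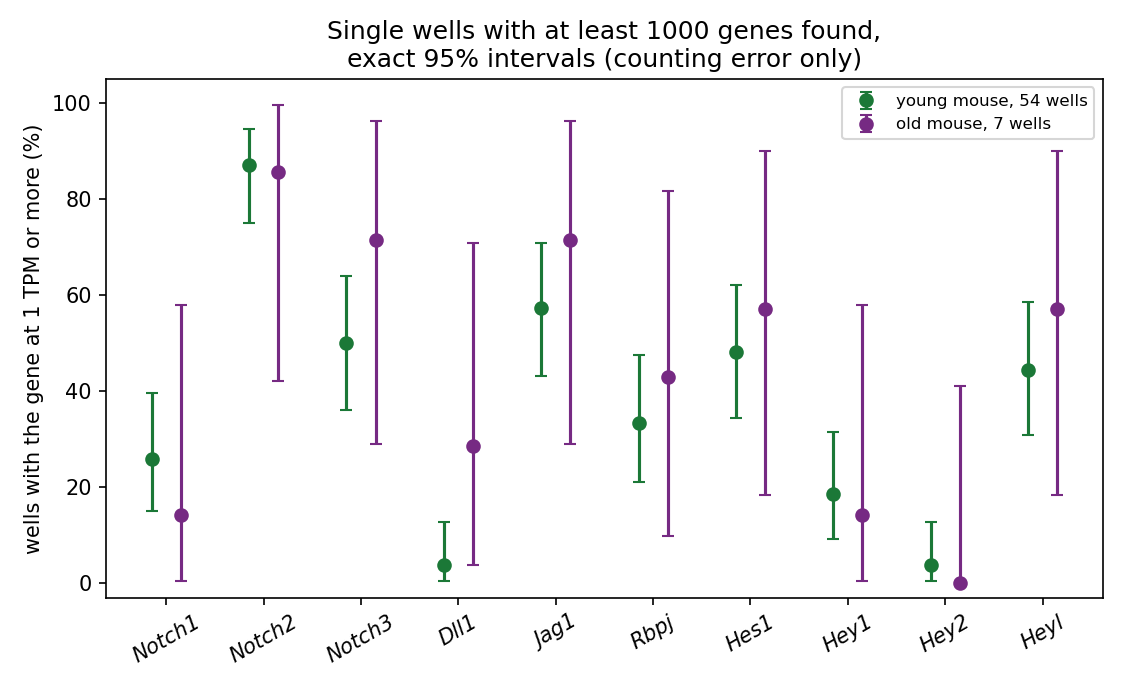
Share of wells (percent) with each Notch gene at 1 TPM or more among wells with at least 1000 genes, for 54 wells of the young mouse and 7 wells of the old mouse, with exact 95% intervals as bars. Notch2 leads in both mice at 87.0 and 85.7%, and the old intervals are wide.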

How the data were processed

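RNA sequencing had been done on 8 bulk libraries and 95 single wells of muscle stem cells. Both deposited tables hold TPM, per the labels, which name STAR and mm10 in the submitters' processing notes. Not given in the sources used here are the version, annotation, strandedness and quantifier. TPM keep no read depth, so none is given per library, and 2 or 3 libraries set the precision of each bulk group. Of 45798 bulk entries, 43283 had an Ensembl ID, 92 were spike-ins and 2423 (0.7145 to 1.1701% of TPM) were left out. GENCODE vM21 held 42782 of the IDs and gave positions.

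Age groups were compared on log2(TPM + 1) by limma 3.58.1 (R 4.3.3) for the 22492 genes averaging 1 TPM or more. Fold changes on that scale understate the change of low genes. The model held the 8 libraries, 1 mean for each age and a variance trend, and p-values were two-sided and adjusted by Benjamini-Hochberg over all genes. The fit was tested on simulated data. Exact permutation tests and Clopper-Pearson intervals used Python 3.11.15 with scipy 1.17.1 (numpy 2.4.6, pandas 2.3.3, matplotlib 3.10.9). Wells came from 1 mouse per age and were not tested between ages. No doublet caller was run, and no wells held identical values.

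The genes and lists were chosen with earlier results of these data known. Named pathway genes are the 2 with the highest mean of each of 7 groups, the up to 3 with the smallest p, old against young, in each direction and any past the threshold. Divisions of the wells and Dll3, Dll4, Dlk2 and Hes3 were chosen after their values were seen. Alternatives varied the pseudocount, the filter, the scaling, the variance model, the libraries fitted and the well thresholds.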

Additional observations from a re-analysis of the deposited data

How the results depend on the processing

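None of the 10 genes passed the threshold in any comparison under any of the 9 other settings or without any 1 library (smallest limma adjusted p 0.154, for Notch1 in old against middle-aged). Of 270 values of the genes under those settings, 262 kept their sign. The 8 that reversed lay near 0, in log2 units: Hey2, old against young, -0.018 (pseudocount 5 TPM), Hes1, middle-aged against young, -0.013 (rescaled without mitochondrial genes and spike-ins), -0.035 (quantile normalization) and -0.12 (replicate block), Notch2 there -0.042 (quantile normalization), Jag1, old against middle-aged, 0.010 (rescaled) and 0.20 (quantile normalization), and Notch2 there -0.022 (replicate block).

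The count over all genes was 0 for old against young under every setting and without any 1 library. For middle-aged against young it was 1, with 7 at a pseudocount of 0.1 TPM, 0 at 5 TPM, 0 with no filter on low values, 2 with a mean of 5 TPM or more, 0 rescaled, 5 with quantile normalization, 12 with no variance trend, 0 with only the 2 ages fitted and 0 with the replicate block. For old against middle-aged it was 0, with 6 at a pseudocount of 0.1 TPM and 1 with quantile normalization. Without 1 library these counts ran from 0 to 859 and from 0 to 792. The high values came without middle-aged library 1 (600 and 580) or 2 (859 and 792), where the lone middle-aged library is assumed to vary like the other groups, and the counts were 0 without any other library.

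Without 1 library, 34 of 240 values of the 10 genes reversed, and 11 of 30 differences kept their sign under all settings: Dll1, Rbpj and Heyl in old against young, Notch1, Notch3, Dll1, Rbpj and Heyl in middle-aged against young, and Notch1, Rbpj and Heyl in old against middle-aged. The ranges of those that reversed were, in old against young, -0.17 to 0.89 for Notch1, -0.093 to 0.24 for Notch2, -0.82 to 0.15 for Notch3, -0.57 to 0.23 for Jag1, -0.28 to 0.60 for Hes1, -0.53 to 0.22 for Hey1 and -0.36 to 0.72 for Hey2. In middle-aged against young they were -0.11 to 0.16 for Notch2, -0.54 to 0.053 for Jag1, -0.91 to 0.93 for Hes1, -2.28 to 0.046 for Hey1 and -3.02 to 0.99 for Hey2. In old against middle-aged they were -0.12 to 0.21 for Notch2, -0.029 to 0.95 for Notch3, -0.57 to 1.69 for Dll1, -0.27 to 0.44 for Jag1, -0.84 to 1.00 for Hes1, -0.29 to 2.03 for Hey1 and -0.96 to 3.04 for Hey2. The cause was not tested.

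Libraries with the same replicate number correlated at r = -0.012 to 0.0049 after removal of the group means (7 pairs), so the numbers share no more than a number, and the block is given above as an alternative only. For the well shares, the main setting was 1 TPM over all wells of an age, 64 young or 31 old. Of 60 alternative well shares, 48 stayed within the interval of that share. With wells of at least 1000 genes 8 moved out of it, and at 5 TPM or more 4 did. The shares described above for wells with at least 1000 genes are thus one of these alternatives. They were not themselves computed at other TPM thresholds. Depth is unknown for bulk values, so values at 0 cannot be given a limit.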
